A study of Mus musculus with 12 samples.

Results

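The genes that carry ketone bodies into cardiomyocytes (CMs) and oxidize them, and the creatine kinases that move high-energy phosphate through them, were examined for the histone mark H3K27ac in RIP140-null and control CMs. They were *Slc16a1*, *Bdh1*, *Oxct1*, *Acat1*, *Ckmt2*, *Ckm* and *Ckb*, chosen by these roles, which makes 7 of the 21938 protein-coding genes of the GENCODE M21 annotation. A region enriched for H3K27ac was assigned to a gene if it overlapped the gene body or the 5 kb on either side of it. By this rule 21 of 53754 regions listed for control CMs and 21 of 45521 regions listed for RIP140-null CMs belonged to the 7 genes.

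Ketone bodies are made in the liver and enter CMs through monocarboxylate transporters such as MCT1, the product of *Slc16a1*. Inside mitochondria, BDH1 oxidizes β-hydroxybutyrate to acetoacetate, OXCT1 activates acetoacetate with CoA taken from succinyl-CoA, and ACAT1 splits acetoacetyl-CoA into acetyl-CoA for the TCA cycle. Creatine kinases buffer and transport ATP. The mitochondrial form CKMT2 makes phosphocreatine where ATP is produced, and the cytosolic forms CKM (muscle) and CKB (brain) regenerate ATP where it is used.

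CUT&RUN, in which an antibody directs a nuclease to chromatin and the released DNA is sequenced, was performed on CMs from hearts of mice aged 10 to 12 weeks, with 200000 CMs in each experiment. The mice of both genotypes carried floxed *Nrip1* alleles (Nrip1 f/f), *Nrip1* being the gene for the corepressor RIP140. The RIP140-null mice (csNrip1-/-, KO) were Cre-positive, with Cre driven by the *Nkx2.5* promoter, which acts in cardiac cells from development on, and the controls were Cre-negative littermates with no second control that carried Cre alone. For each genotype, 3 replicates were run with the H3K27ac antibody and 3 with IgG as background. The mice are described as male.

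The values available were the ends of each region in 1 merged list per genotype. A region is in a list if it was found in at least 2 of 3 replicates, so a region absent from a list may still have been found in 1. Heights, read counts and calls of single replicates were not analysed here, no replicate error could be given, and no comparison below has a test. The depth is unknown. Where it was counted, the share of the same kind among all genes or regions is printed instead. It is the background against which a count should be read. A number that ends each region's name was read as the count of replicate peaks merged into it. The labels do not state this meaning. The lowest value is 2. Regions with this number at 2 made up 68.9% of the control list and 61.0% of the KO list. The control list covered 151.3 Mb in regions with a median width of 1846 bp, and the KO list covered 154.2 Mb with a median width of 2291 bp.

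The labels and the cell type were checked first. The last exon of *Nrip1*, which holds the coding sequence, was covered over 2904 of its 7616 bp in the control list and over 0 bp in the KO list. Of the 8 cardiomyocyte marker genes, 7 had a covered promoter in both lists, and *Nppa* was the exception. Promoters of endothelial markers were covered for 5 of 5 genes in the control list and for 4 of 5 in the KO list. The median length covered per endothelial gene was 16.99 kb and 21.05 kb, both the values of *Kdr*. *Pecam1* was also covered longer in the KO list (33.4 and 41.7 kb). *Cdh5* (5.08 and 1.74 kb), *Tek* (37.8 and 36.2 kb) and *Egfl7* (10.6 and 10.1 kb) were covered shorter. The range over these genes was 5.08 to 37.8 kb in the control list and 1.74 to 41.7 kb in the KO list. Fibroblast promoters were covered for 1 of 6 genes (*Pdgfra*) in the control list and 0 of 6 in the KO list, with at most 0.834 kb at any fibroblast gene, and *Col1a2*, *Dcn*, *Postn* and *Tcf21* were at 0 in both lists. Macrophage promoters were covered for 0 of 5 genes in both lists, smooth muscle promoters for 1 of 3 in both, liver promoters for 0 of 2 in both, and skeletal muscle promoters for 1 of 3 in the control list and 2 of 3 in the KO list. *Slc16a1* and *Ckb* are also used by cells other than CMs, and the part of such cells in their regions was not tested.

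The summed length covered by H3K27ac at the 7 genes was nearly the same in both genotypes, and most of it was shared. Single genes varied, with log2 ratios from -0.44 (*Ckmt2*) to 0.87 (*Ckb*). Of the bases covered in either list, 32.8% (*Ckb*) to 98.7% (*Acat1*) were common. Summed over the genes, regions covered 84.9 kb in the control list and 87.5 kb in the KO list, a log2 ratio of 0.04. Of these, 69.5 kb was covered in both lists, which was 81.8% of the control length and 79.4% of the KO length, beside 74.1% and 72.7% in the whole series. The median log2 ratio of covered length (KO to control) was -0.01 over the 7 genes and 0.08 over the 12989 genes covered in both lists. Only *Ckb* was covered more than 1.5-fold longer in the KO list, beside 16.3% of all genes, and 0 of 7 were covered more than 1.5-fold shorter, beside 8.60% of all genes. These calls rest on the 5 kb flanks. Within gene bodies alone 0 genes were more than 1.5-fold longer and 2 more than 1.5-fold shorter, *Ckb* with a log2 ratio of -0.68 and *Ckmt2* with -0.79.

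**Figure D1:**
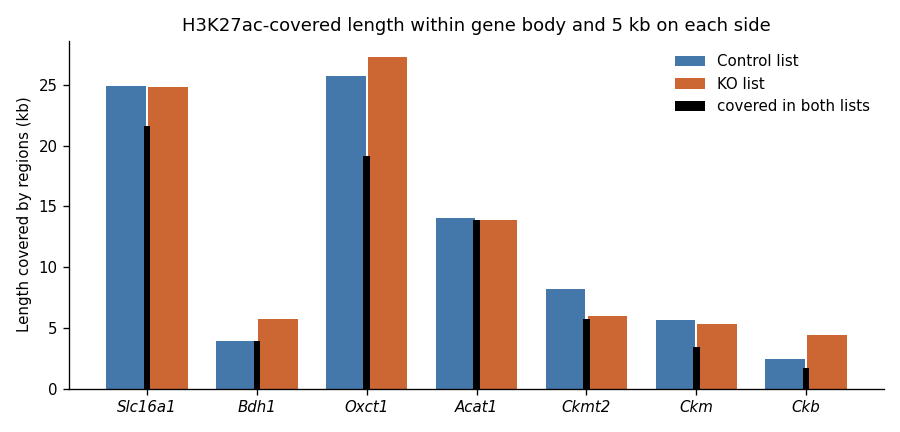
Length covered by H3K27ac regions (y axis, kb) within each gene body and 5 kb on each side, in the control list (blue bars) and the KO list (orange bars), with the length covered in both lists as a narrow black bar. Each bar is 1 merged list and has no error. Paired bars are nearly equal for *Slc16a1*, *Oxct1*, *Acat1* and *Ckm*, the KO bar is taller for *Bdh1* and *Ckb*, and it is shorter for *Ckmt2*.

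The length covered by H3K27ac regions differed widely among the 7 genes in both genotypes. *Oxct1* and *Slc16a1* were the most covered, with 25.8 and 24.9 kb in the control list, above 92.4% and 92.2% of genes with a region. *Acat1* followed with 14.0 kb, then *Ckmt2* with 8.18 kb, *Ckm* with 5.61 kb, *Bdh1* with 3.95 kb and *Ckb* with 2.43 kb. In the KO list *Bdh1* stood at 5.71 kb and *Ckm* at 5.30 kb, so that these neighbours changed places, and *Ckb* at 4.45 kb remained the least covered. *Ckb*, the shortest of these genes, has a window of 13.0 kb and *Oxct1* one of 139.0 kb. Covered length did not follow window size throughout, since *Bdh1* has a window of 46.6 kb and *Slc16a1* one of 29.8 kb. A relation between the 2 was not tested. Relative to its window *Slc16a1* was covered over 83.7% and 83.3%, *Acat1* over 35.2% and 34.9%, and *Oxct1* over 18.5% and 19.6% (control and KO).

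**Figure D2:**
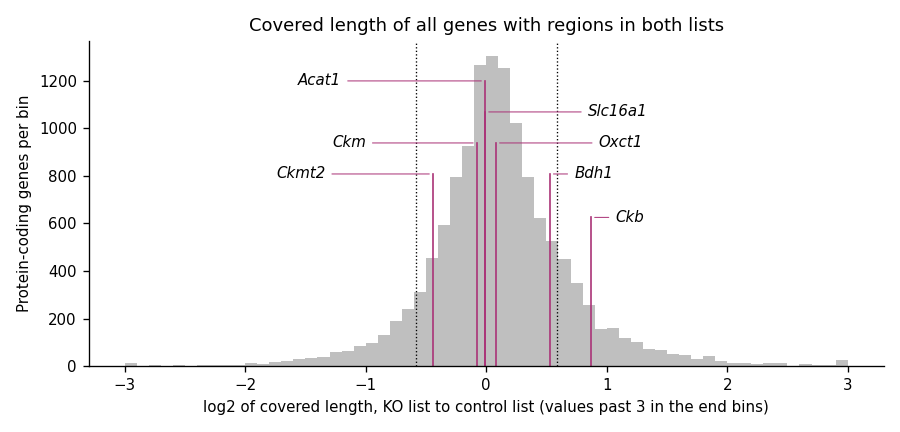
Histogram of the log2 ratio of covered length, KO to control (x axis), for the 12989 protein-coding genes covered in both lists (y axis, genes per bin). Lines mark the 7 genes and dotted lines the 1.5-fold limits. *Ckb* (0.87) lies past the upper limit, *Bdh1* (0.53) just inside it and *Ckmt2* (-0.44) toward the lower one, and the other 4 lie between -0.08 and 0.08.

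Regions listed for 1 genotype only were as many in each direction. Of the 21 regions of each list, 5 overlapped no region of the other list by a single base, or 23.8% (95% Wilson interval 10.6 to 45.1, counting error only). The same share was 29.5% of all control regions and 21.5% of all KO regions. The interval treats regions as independent, although several lie at the same gene, and it gives no spread between replicates. These 10 regions lay at 3 genes. *Oxct1* and *Ckm* had both kinds, and *Ckb* had 1 KO-only region. Among all genes with a region, 35.2% had a KO-only region, 39.2% a control-only region and 17.8% both. The control-only regions were 504 to 3014 bp wide (median 928) and the KO-only regions 591 to 2854 bp (median 921). Of the 10, 9 rested on the minimum of 2 replicate peaks, as did 94.3% of control-only and 87.8% of KO-only regions of the series. Of the 10, 9, all at *Oxct1* and *Ckm*, had their center in an intron, as did 15 of the 21 control and 14 of the 21 KO regions of these genes. Of the 10, 2 touched an exon. The intron and exon counts were not made over all genotype-only regions of the series, so they have no such background. With a reciprocal overlap of 50% required, 11 regions of each list counted as its own.

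*Slc16a1*, on chr3:104638668-104658462 (GRCm38, plus strand), encodes the transporter that admits ketone bodies, lactate and pyruvate. It lay within an almost continuous domain of H3K27ac in both genotypes. Its single annotated start was inside a wide region, of 12104 bp in the control list and 9414 bp in the KO list. The control list had 4 regions at the gene and the KO list 3, and each overlapped a region of the other list. Downstream of the start the pieces were divided differently. A KO region of 14424 bp, wider than 98.1% of KO regions, took in the later part of the gene and its last exon, where the control list had regions of 5970 and 5185 bp. Counted to the full extent of the overlapping regions, the domain ran from chr3:104635330 to chr3:104678308 with 5 regions in each list, beyond the 5 kb limit. Within the window 24927 bp were covered in the control list and 24819 bp in the KO list, and 21613 bp in both. The KO list lacked 3314 of the control bases and held 3206 others, a log2 ratio of -0.01. Short noncoding genes start within the window as well. The start of *Gm43581* was inside a region in both lists and that of *Gm43585* in the control list alone, and neither can be told apart from *Slc16a1* by these regions.

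*Bdh1*, on chr16:31422280-31458901 (plus strand), encodes β-hydroxybutyrate dehydrogenase, the first enzyme of ketone oxidation. It had 1 region in each list, of 3953 bp in the control list and 5711 bp in the KO list, and the KO region contained the control region whole. The difference was 1758 bp, a log2 ratio of 0.53 or 1.44-fold, which 81.7% of genes covered in both lists did not reach. With regions assigned instead to the nearest start of a protein-coding gene, the log2 ratio was 0.02. The KO region reached 472 bp farther upstream and 1286 bp farther downstream. Shifts at the edges of loci held by both lists were as large or larger for many loci, with 61.3% and 88.5% of all edge shifts below these values. The mark lay at internal starts. The outermost annotated start of *Bdh1* (ENSMUST00000089759) had 0 bp covered from 1000 bp upstream to 100 bp downstream in both lists. The start 6.47 kb farther in (ENSMUST00000115227) had 612 of 1101 bp covered in the control list and 1084 bp in the KO list. The antisense gene *Gm15743* has its starts in the same regions.

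The promoters of these *Bdh1* starts are shown because the mark separated them in both genotypes. They are RefSeq sequences of GRCm38.p6, from 250 bases before the start to 50 after it, and none of the searched motifs described below occurs in either. The first, at chr16:31422047-31422346, was not covered in any list, and the second, at chr16:31428503-31428802, was covered over all 300 bases in both lists.
*Bdh1* outer start, plus strand: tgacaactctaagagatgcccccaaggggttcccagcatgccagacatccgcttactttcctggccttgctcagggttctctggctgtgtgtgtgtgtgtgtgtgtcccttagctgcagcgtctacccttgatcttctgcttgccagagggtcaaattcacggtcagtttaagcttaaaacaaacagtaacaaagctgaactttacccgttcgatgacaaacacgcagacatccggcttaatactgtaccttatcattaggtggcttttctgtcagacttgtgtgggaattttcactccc
*Bdh1* inner start, plus strand: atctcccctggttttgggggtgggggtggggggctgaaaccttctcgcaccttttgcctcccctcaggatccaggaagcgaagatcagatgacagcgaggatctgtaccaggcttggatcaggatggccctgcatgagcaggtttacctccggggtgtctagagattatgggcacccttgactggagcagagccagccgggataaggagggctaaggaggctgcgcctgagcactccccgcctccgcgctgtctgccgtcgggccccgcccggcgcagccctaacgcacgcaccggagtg
The bases of the inner promoter were 63.7% G or C and those of the outer promoter 48.3%.

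*Oxct1*, on chr15:4026383-4155344 (plus strand), encodes the rate-limiting enzyme of ketone use, which the liver lacks. Its start was inside one of the widest regions of either list, 13492 bp in the control list and 12877 bp in the KO list, wider than 98.6% and 97.5% of regions. This region ran from 4.36 kb (control) or 3.65 kb (KO) upstream to 9.13 or 9.22 kb downstream of the start. The noncoding gene *BC037032*, on the other strand, has 6 starts in the window, all 6 inside regions in both lists. Its part in the regions counted for *Oxct1* was not tested. The antisense gene *Gm15632* has 1 start in the window, in no region. The lists differed within the gene body. There, 6 of the 10 genotype-only regions of these genes lay between 10.3 and 81.8 kb from the start, 3 in each list, and no listed region lay beyond that point. In total 25762 bp were covered in the control list and 27302 bp in the KO list, a log2 ratio of 0.08, which is at the middle of all genes (percentile 50.0). Behind this near equality the lists shared only 19154 bp. Control-only bases came to 6608 and KO-only bases to 8148, so 56.5% of all covered bases were common.

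The KO-only regions of *Oxct1* were at chr15:4036726-4037646 (921 bp, touching an exon), chr15:4054543-4055133 (591 bp) and chr15:4077718-4080571 (2854 bp). The last of these was 7171 bp from the nearest control region. The first and second were 1208 and 499 bp from one. The control-only regions were at chr15:4061778-4064791 (3014 bp), chr15:4096687-4097190 (504 bp) and chr15:4107610-4108151 (542 bp). The first was 574 bp from the nearest KO region and the others 16115 and 27038 bp. All 6 had 2 replicate peaks. At 2 shared loci the width differed by more than 1.5-fold, in opposite directions. At chr15:4039643-4043622 the region was 902 bp wide in the control list and 3953 bp in the KO list, with the upstream edge 3078 bp farther out, a shift above 98.6% of all edge shifts. At chr15:4055633-4057514 it was 1882 bp in the control list and 902 bp in the KO list.

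The central 200 bases of the widest region of each kind are shown, on the plus strand of GRCm38, with matches to the GATA4 motif, whose letters are given with the other motifs, in capitals.
*Oxct1* KO-only region, chr15:4079045-4079244: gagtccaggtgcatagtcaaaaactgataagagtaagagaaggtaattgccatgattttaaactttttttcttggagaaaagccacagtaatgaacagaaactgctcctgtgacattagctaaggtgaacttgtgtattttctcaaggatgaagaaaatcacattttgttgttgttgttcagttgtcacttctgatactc
*Oxct1* control-only region, chr15:4063185-4063384: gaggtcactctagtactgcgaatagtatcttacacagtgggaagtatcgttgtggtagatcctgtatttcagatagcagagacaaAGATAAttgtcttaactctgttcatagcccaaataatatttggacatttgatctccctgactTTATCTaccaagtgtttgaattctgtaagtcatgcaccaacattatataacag
The KO-only center held none of the searched motifs and the control-only center 2 of these matches. In the series 11.8% of KO-only and 13.5% of control-only centers held a GATA4 match, and over the full length of these *Oxct1* regions the matches numbered 7 in the KO-only and 5 in the control-only region.

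*Acat1*, on chr9:53580522-53610382 (minus strand), encodes the mitochondrial thiolase of the last step. It had the most similar region of all 7 genes. A single region spanned the start and 13.5 kb (control) or 13.3 kb (KO) downstream of it. It was 14044 bp wide in the control list and 13924 bp in the KO list, wider than 98.7% and 98.0% of regions, and merged 7 and 9 replicate peaks. The lists shared 13893 bp, or 98.7% of all bases covered in either, and the edges differed by 31 and 151 bp.

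**Figure D3:**
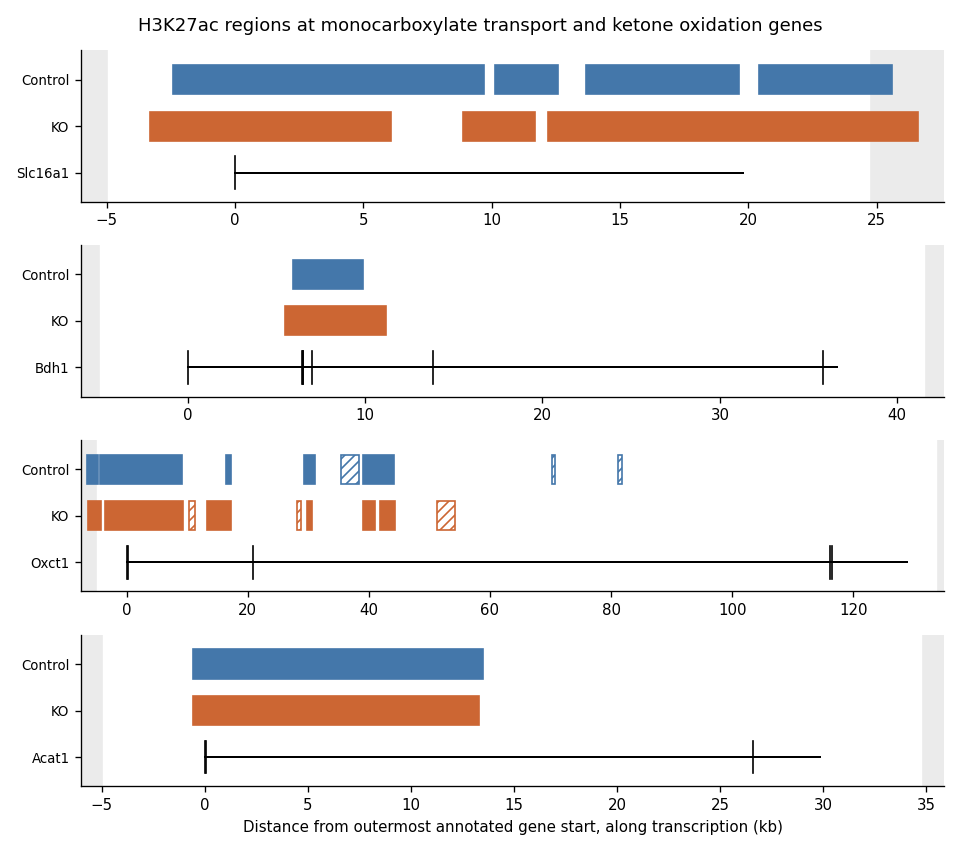
Regions of the control list (blue) and the KO list (orange) at *Slc16a1*, *Bdh1*, *Oxct1* and *Acat1*, by distance from the outermost annotated start along the direction of transcription (x axis, kb). Black lines are gene bodies with ticks at annotated starts, hatched boxes are regions found in 1 list only, and grey lies beyond the 5 kb limit. The wide regions at the starts of *Slc16a1*, *Oxct1* and *Acat1* are present in both rows, the *Bdh1* region lies at internal starts, and all hatched boxes are in *Oxct1*.

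*Ckmt2*, on chr13:91853387-91876885 (minus strand), encodes the mitochondrial creatine kinase of striated muscle. Its 1 region was 8180 bp wide in the control list and 6012 bp in the KO list, a log2 ratio of -0.44 or 0.735-fold, and 12.7% of genes covered in both lists had a lower ratio. The regions shared 5741 bp around the start, whose promoter was fully covered in both lists. The difference lay at the edge inside the gene. It was 5.81 kb from the start in the control list and 3.37 kb in the KO list, a shift of 2439 bp that was above 97.2% of all edge shifts, while the upstream edge moved out by 271 bp. This was the only one of the 7 genes at which the KO list was shorter by more than 1000 bp. Within the gene body alone, without the flanks, the log2 ratio was -0.79.

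*Ckm*, on chr7:19404776-19422841 (plus strand), encodes the muscle creatine kinase of myofibrils. Its protein-coding starts (ENSMUST00000208710 and ENSMUST00000003643) lay within a region of 3436 bp in the control list and 4538 bp in the KO list, and their promoters were fully covered in both. The KO region contained the control region whole and reached 822 bp farther upstream and 280 bp farther downstream. The start of a noncoding transcript 6.25 kb upstream of the first of them (ENSMUST00000208079) was in no region. In the control list 2 more regions followed inside the gene, at chr7:19413078-19414005 and chr7:19415669-19416911, of 928 and 1243 bp. They overlapped no KO region, and the first was 233 bp from the end of the KO region. In the KO list 1 more region, of 766 bp at chr7:19405301-19406066, lay near the noncoding start and 3062 bp from the nearest control region. All 3 had 2 replicate peaks. The total was 5607 bp in the control list and 5304 bp in the KO list, a log2 ratio of -0.08, and 46.0% of the bases covered in either list were common. The coding gene *Klc3* has 4 starts in the window on the other strand, none in a region.

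*Ckb*, on chr12:111669361-111672338 (minus strand), encodes the brain form of creatine kinase, which the heart uses at a lower level than *Ckm*. It was the gene with the least common coverage. The window held 2430 covered bp in the control list and 4450 bp in the KO list, a log2 ratio of 0.87 or 1.83-fold, above 91.8% of all genes, and 32.8% of the bases covered in either list were common. The value rests on the ground outside the gene. Within the gene body alone the log2 ratio was -0.68. The KO-only region, of 1272 bp at chr12:111665617-111666888, was downstream of the gene, merged 3 replicate peaks and was 1105 bp from the nearest control region. A further part came from a region upstream that was 1662 bp wide in the control list and 2335 bp in the KO list, of which 244 and 983 bp lay within the window. Its nearest start is that of *Trmt61a* and not of *Ckb*.

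At the *Ckb* start itself the listed region was placed differently. In the control list it was 638 bp wide and ran from 304 to 941 bp inside the gene. In the KO list it was 944 bp wide and ran from 434 bp upstream to 509 bp inside the gene. The main start (ENSMUST00000001304, at position 111672338) therefore had 0 of 1101 promoter bases covered in the control list and 535 in the KO list. In the reverse direction, 2 starts of retained-intron transcripts 0.794 and 0.853 kb inside the gene lay in the control region and not in the KO region. The edges shifted by 738 and 432 bp, above 74.8% and 58.4% of all edge shifts, and both regions had 2 replicate peaks.

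The promoter at this start is shown because it was covered over all of its 300 bases in the KO list and over 0 in the control list. It is the RefSeq sequence of GRCm38.p6, on the minus strand of chr12:111672289-111672588, from 250 bases before the start to 50 after it. The capitals are a match to the MEF2 consensus, 29 to 20 bases before the start, which also contains the TATAAA letters of a TATA box.
*Ckb* promoter, minus strand: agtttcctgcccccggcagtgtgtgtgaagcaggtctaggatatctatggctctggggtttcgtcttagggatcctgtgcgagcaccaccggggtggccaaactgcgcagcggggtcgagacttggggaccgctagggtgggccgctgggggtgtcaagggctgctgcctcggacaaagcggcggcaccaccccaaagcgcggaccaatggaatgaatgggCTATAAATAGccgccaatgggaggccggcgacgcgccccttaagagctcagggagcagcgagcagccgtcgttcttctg
The central 200 bases of the KO-only region downstream of *Ckb*, on the plus strand, held the same letters once more, in capitals.
*Ckb* KO-only region, chr12:111666153-111666352: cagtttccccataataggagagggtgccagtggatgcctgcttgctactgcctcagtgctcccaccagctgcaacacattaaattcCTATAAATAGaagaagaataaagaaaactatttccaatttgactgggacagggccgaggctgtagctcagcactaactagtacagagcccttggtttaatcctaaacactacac
A MEF2 match was present in 0.557% of 32851 RefSeq promoters and in the central 200 bases of 1.08% of the KO-only regions of the series.

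**Figure D4:**
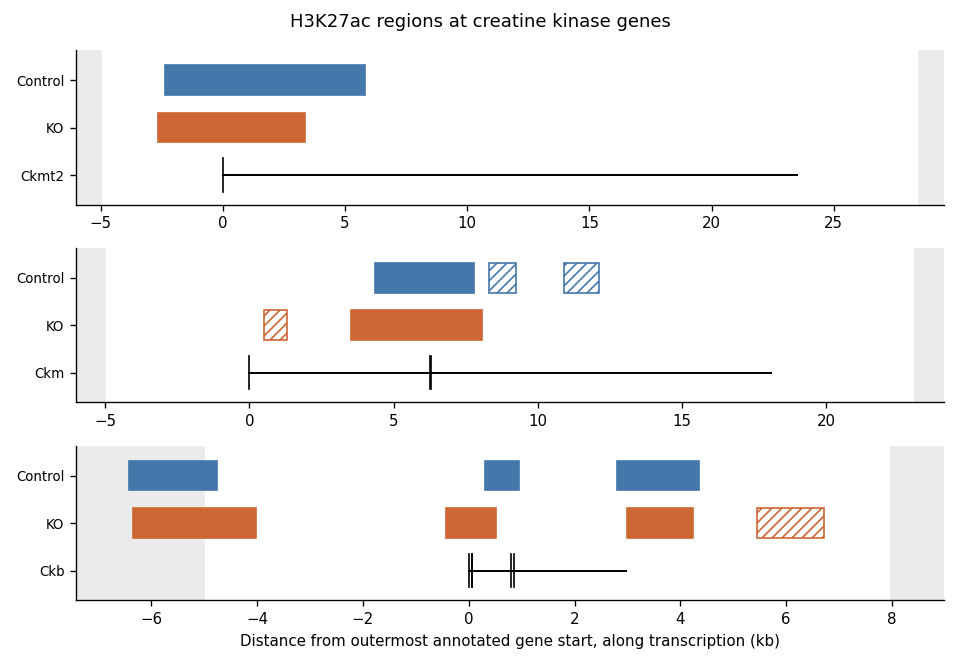
Regions of the control list (blue) and the KO list (orange) at *Ckmt2*, *Ckm* and *Ckb*, by distance from the outermost annotated start along the direction of transcription (x axis, kb). Black lines are gene bodies with ticks at annotated starts, hatched boxes are regions found in 1 list only, and grey lies beyond the 5 kb limit. The *Ckmt2* region ends at 5.81 kb in the control row and at 3.37 kb in the KO row, and the *Ckb* region nearest the start begins at 0.304 kb in the control row and at -0.434 kb in the KO row.

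Coverage of starts was compared for all 25 annotated starts of the 7 genes. At least 1 base from 1000 bp upstream to 100 bp downstream was covered for 14 starts in the control list and 17 in the KO list, and all 7 genes had such a start in both lists. The 3 starts covered in the KO list alone were all of *Ckb* and lie within 56 bp, so they reflect 1 region. Among all genes with a covered promoter, 14.2% had one in 1 list only. The start base itself was inside a region for 14 starts in the control list and 15 in the KO list. It was so in 1 list only for 5 of the 17 starts that were inside a region in either list, or 29.4%, beside 18.0% of such starts of all protein-coding genes. All 5 were starts of *Ckb* and lie within 853 bp, so they are not independent of each other.

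At loci, meaning regions of both lists joined where they overlap, width changed in both directions. The log2 ratios ran from -1.06 to 2.13, both at *Oxct1*, so a median near 0 does not mean that single loci kept their width. The 7 genes had 22 loci, of which 12 were in both lists. The median log2 ratio of width was -0.02 at these 12 and 0.08 at the 32649 loci of the series. One was more than 1.5-fold wider in the KO list, beside 17.3% of the series, and 1 was more than 1.5-fold narrower, beside 10.3%, both at *Oxct1*. The median shift of the 24 edges was 275.5 bp, beside 333 bp for all 65298 edges, of which 10% moved by more than 1392 bp. Only the *Oxct1* edge and the *Ckmt2* edge described above passed that value.

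Binding motifs of ERR, MEF2, PPAR, thyroid hormone receptor (TR), glucocorticoid receptor (GR) and GATA4, factors known in cardiac gene control, were searched on both strands as plain letters. These were TNAAGGTCA for ERR and AGATAA for GATA4. Those for PPAR and TR were direct repeats of AGGTCA with 1 and 4 free bases between the copies, and that for GR was GNACA and TGTNC with 3 free bases between them. MEF2 was searched by its usual consensus of 10 bases. A match describes letters and not binding. The last 6 letters of the ERR motif are also 1 copy of the PPAR and TR repeats. Within the full regions of the 7 genes, ERR matches numbered 6 in the control list and 4 in the KO list, or 0.677 and 0.435 per 10 kb, beside 0.738 and 0.749 over all regions. MEF2 matches numbered 6 and 9, or 0.677 and 0.978 per 10 kb, beside 0.379 and 0.361 over all regions. GATA4 letters occurred 6.88 and 6.63 times per 10 kb, beside 6.61 and 6.44, GR letters 3 times in each list at the same positions, and PPAR and TR letters 0 times.

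All 7 ERR match positions are shown. How many ERR positions fall in 1 list only was not counted over all regions, so the counts that follow have no background. At these genes 81.8% of the control length and 79.4% of the KO length was covered in both lists. Of the positions, 3 lay in regions of both lists, 3 in the control list only and 1 in the KO list only. Each is given with 11 bases on either side, on the plus strand of GRCm38, with the match in capitals, so that a match on the minus strand reads TGACCTTNA.
*Acat1*, both lists, chr9:53598576-53598606: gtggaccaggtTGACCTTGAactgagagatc
*Oxct1*, both lists, chr15:4069660-4069690: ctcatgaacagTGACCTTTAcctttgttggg
*Ckmt2*, both lists, chr13:91876807-91876837: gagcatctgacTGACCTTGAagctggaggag
*Ckmt2*, control list only, chr13:91871120-91871150: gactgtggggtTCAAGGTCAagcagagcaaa
*Ckm*, control list only, chr7:19413713-19413743: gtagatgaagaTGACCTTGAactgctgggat
*Oxct1*, control list only, chr15:4019922-4019952: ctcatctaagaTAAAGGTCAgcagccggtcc
*Ckm*, KO list only, chr7:19405433-19405463: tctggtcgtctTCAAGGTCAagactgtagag
The *Ckmt2* match of both lists lay 0.067 kb inside the gene and the other one 5.75 kb inside, in the stretch that the KO region did not reach. At *Ckm* each genotype-only region with an ERR match was a different stretch of the gene. The *Oxct1* match of the control list lay 6.45 kb upstream of the start, in a region whose counterpart in the KO list began 150 bp farther in. Of the 9 MEF2 positions, 6 were in both lists and 3 in the KO list only. Of these 3, 2 were at *Ckb* and the other in the widest KO-only region of *Oxct1*, 52.6 kb from the start. The same split of MEF2 positions was not counted over all regions either.
*Oxct1* MEF2 match, KO list only, chr15:4078960-4078991: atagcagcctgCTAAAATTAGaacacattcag

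Around these genes, 19 others of the same pathways were examined as a group. They covered side routes and transport of ketones, creatine synthesis, uptake and the other mitochondrial creatine kinase, adenylate kinases, and the carriers and pores that exchange ATP and ADP across mitochondrial membranes. Of the 19, 17 had a region, and 15 were covered in both lists. The covered length was more than 1.5-fold longer in the KO list for 3 of the 15 and more than 1.5-fold shorter for 0. The shares of all genes were 16.3% and 8.60%. The median log2 ratio was 0.23, beside 0.08 for all genes and -0.01 for the 7 genes. The 3 were *Slc16a7* (6.40 kb to 18.2 kb, log2 1.51), which encodes the monocarboxylate transporter MCT2, *Ak4* (3.29 kb to 8.12 kb, 1.30), a mitochondrial adenylate kinase, and *Bsg* (7.29 kb to 11.2 kb, 0.62), whose product basigin brings MCT1 to the cell surface.

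By role, the ketone genes outside the 7 had a median log2 ratio of 0.62 over 3 genes, the creatine genes 0.42 over 3, the ATP and ADP exchange genes 0.17 over 5 and the adenylate kinases -0.03 over 4. In the creatine group, *Slc6a8*, the creatine transporter, was covered over 7.94 kb in the control list and 10.6 kb in the KO list, and *Gamt*, which completes creatine synthesis, over 4.09 and 5.54 kb. *Slc25a4*, the main ADP/ATP carrier of heart muscle, was covered over 11.1 and 12.3 kb. *Acat2* and *Gatm* had no region in either list. Of the 17 genes with a region, 6 had a KO-only region and 5 a control-only region, which is 35.3% and 29.4%, beside 35.2% and 39.2% of all genes with a region. Promoters were covered in 1 list only at 3 of the 16 genes with a covered promoter, or 18.8%, beside 14.2% of all such genes. They were *Bdh2* in the control list and *Slc16a3* and *Ak4* in the KO list. Endothelial genes also held regions, with a median of 16.99 and 21.05 kb that is the value of *Kdr* alone. *Pecam1* was covered longer in the KO list as well, and *Cdh5*, *Tek* and *Egfl7* shorter. The part of endothelial cells in the values of *Slc16a7* or *Bsg* was not tested.

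**Figure D5:**
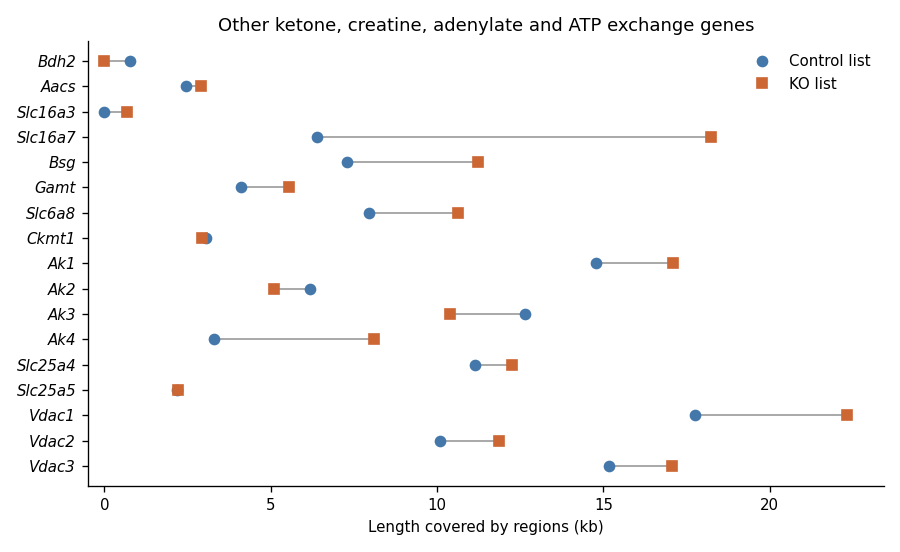
Length covered by H3K27ac regions (x axis, kb) at the 17 other pathway genes with a region, in the control list (blue circles) and the KO list (orange squares), 1 value per list with no error. The KO square lies far to the right for *Slc16a7* (18.2 kb against 6.40 kb) and *Ak4* (8.12 kb against 3.29 kb), and close to the circle for *Slc25a5* and *Ckmt1*.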

How the data were processed

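H3K27ac CUT&RUN was performed on CMs of 2 genotypes with 3 replicates each and 3 IgG replicates. Reads were mapped by the authors to GRCm38 with bowtie2 (2.4.2), and samtools was used to discard duplicates. Homer (4.11.1, histone style) called regions in every replicate over IgG. The authors deposited 1 merged list per genotype, with regions seen in 2 or more of 3 replicates. The score column that the authors deposited is 1 throughout and was not used. The other deposited values are start and end positions in bp, so depth and replicate error are unknown.

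Regions outside chromosomes 1 to 19, X and Y (21 control, 14 KO) were left out. Regions overlapping by at least 1 bp were shared. Promoters ran from 1000 bp upstream to 100 bp downstream of every annotated start. Named genes are the 7, genes starting within their windows, pathway genes past 1.5-fold or with a region in 1 list only, markers and *Nrip1*. *Gm43582* (at *Slc16a1*), *A930016O22Rik* (at *Ckm*) and *1700119I11Rik* (at *Ckmt2*) also start within the windows, with no start inside a region. *Slc6a8*, *Gamt*, *Slc25a4*, *Slc25a5*, *Ckmt1*, *Trmt61a* and pathway genes with no region were named after their values were seen. Some pathway genes of the chosen list are not reported here. The 7 genes, lists and comparisons were chosen with earlier results of these data known. The 1 bp overlap class, joined loci, covered length and motif search recovered planted regions, lengths and motifs in simulated lists. Promoter, start and edge measures were not tested in this way. Alternatives changed overlap, width, window, promoter and start choices. Python 3.11.15, pysam 0.24.0, scipy 1.17.1 and matplotlib 3.10.9 were used, with promoters from RefSeq (GRCm38.p6).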

Additional observations from a re-analysis of the deposited data

How the results depend on the processing

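KO-only and control-only counts, covered length, promoter coverage and shared locus width at the chosen ketone and creatine genes were repeated with other choices. These choices were overlap, region width, gene window, promoter and start, each where it applied. The shares of genes with a genotype-only region were recounted over all genes of the annotation. Start bases, edge shifts, motif counts and the other pathway genes were not repeated. The values of *Slc16a7*, *Ak4* and *Bsg* were therefore not checked within gene bodies alone. Changes of over 1.5 times in a count were these. The KO-only and control-only counts, 5 and 5, became 11 and 11 under a reciprocal overlap of 50%, 3 and 3 among regions at least 1000 bp wide, and 3 and 0 among regions with 3 or more replicate peaks, an alternative chosen after seeing the data. Of those 3, 2 overlapped control regions with fewer peaks that this filter removed, and under it 37.4% of KO and 31.2% of control regions of the series counted as their list's own. The control-only count alone became 3 when a gap of up to 1000 bp counted as shared, 3 with equal numbers of the widest regions, and 9 with regions assigned by nearest start. Within the gene body alone, 0 genes were covered over 1.5-fold longer in the KO list and 2 over 1.5-fold shorter, *Ckb* reversing to -0.68 and *Ckmt2* at -0.79. The log2 ratio of *Bdh1* fell from 0.53 to 0.02 with regions assigned by nearest start. That of *Ckm* went from -0.08 to 0.40 with 3 or more replicate peaks. With 3 or more replicate peaks 0 genes were covered over 1.5-fold longer, since *Ckb* then had no control region, and 0 loci were wider. Among regions at least 1000 bp wide 0 loci were wider and 0 narrower. With only the outermost start of each gene, 4 promoters were covered in the control list and 5 in the KO list. The median log2 ratio of covered length stayed between -0.08 and 0.05 in all alternatives run. No paired analysis was possible because each genotype has 1 merged list, and leaving out a replicate was not possible for the same reason. The cause of these changes was not tested beyond the construction of each alternative.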
